A study of Mus musculus with 19 samples.

Results

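The carrier proteins of blood plasma are made by hepatocytes and hold hormones, vitamins, metals, heme and drugs in solution. The 10 genes described here were chosen by symbol: Alb, Afp, Ttr, Rbp4, Trf, Hpx, Hp, Ahsg, Ambp and Orm1. All 10 were present among the 13549 genes of the embryonic liver table, and all 10 were present by Ensembl identifier among the 17606 genes of the tumour files.

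Both experiments sequenced RNA from mouse models of fibrolamellar carcinoma, a tumour of the liver in which the gene of the chaperone DNAJB1 is fused to PRKACA, the gene of the catalytic subunit of protein kinase A. The first model was the liver of embryos at embryonic day 18.5, from which poly-A RNA was taken: 5 livers labelled "control" and 4 labelled "DNAJ1B-PKA_Overexpression", called control and fusion livers below. In the fusion group a DNAJB1-PRKACA-GFP cDNA stood in the Rosa26 locus behind a stop that Cre removes, and Cre was driven by the albumin promoter (Alb-Cre), which is the promoter of a gene described here. The alleles that the controls carried are not given beyond their label, so that whether they held Cre or the stopped cDNA is not known. The second model was a set of 10 tumours of the mouse line FL8, embedded in gelatin capsules and grown under the skin of NSG mice, which lack T, B and natural killer cells. Mice were given the carrier (0.5% methocel, per the sample labels, where the series text names PBS) in 5 cases and palbociclib, an inhibitor of the cell cycle kinases CDK4 and CDK6, in 5 cases, at 75 mg/kg by gavage for 3 days, followed by 4 days without drug. All 10 tumours came from 1 cell line, and host and tumour are of the same species, so that their reads cannot be told apart. No label says whether libraries of a group came from separate litters or mice, and p-values measure the spread between these samples.

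Albumin (Alb) and alpha-fetoprotein (Afp) are related proteins encoded side by side. Afp is the main carrier of fetal plasma and is silenced in the liver after birth, while Alb stays on for life, which makes their ratio a common measure of hepatocyte maturity. Of the other members, Ttr carries thyroxine and, bound to Rbp4, retinol, Trf carries iron, Hp captures free haemoglobin and Hpx captures free heme. Ahsg (fetuin-A) binds calcium phosphate mineral, Ambp encodes the precursor of alpha-1-microglobulin and bikunin, and Orm1 is a drug-binding protein of the acute phase response.

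On the GRCm38 assembly Alb lay at chr5:90460897-90476602 and Afp at chr5:90490737-90508907, both on the plus strand and separated by 14134 bases. The promoter sequences of the neighbours are shown because Afp rose in the fusion livers while Alb did not pass the test, and that of Hpx because its transcript rose by the largest factor among the members. Each is the 250 bases before a RefSeq transcript start on GRCm38.p6, written along the strand of the gene: chr5:90460620-90460869 (plus) for Alb, chr5:90490464-90490713 (plus) for Afp and chr7:105600117-105600366 (minus) for Hpx. Capitals mark GTTAAT, the core letters bound by the hepatocyte factor HNF1.
Alb: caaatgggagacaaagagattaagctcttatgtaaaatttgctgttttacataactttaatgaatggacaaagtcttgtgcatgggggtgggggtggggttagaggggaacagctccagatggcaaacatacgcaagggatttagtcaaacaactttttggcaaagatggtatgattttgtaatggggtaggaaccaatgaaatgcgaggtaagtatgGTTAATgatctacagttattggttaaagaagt
Afp: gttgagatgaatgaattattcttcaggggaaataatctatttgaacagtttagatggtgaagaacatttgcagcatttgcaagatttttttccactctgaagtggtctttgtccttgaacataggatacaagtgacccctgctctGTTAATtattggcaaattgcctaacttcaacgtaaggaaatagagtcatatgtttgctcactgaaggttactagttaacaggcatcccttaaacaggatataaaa
Hpx: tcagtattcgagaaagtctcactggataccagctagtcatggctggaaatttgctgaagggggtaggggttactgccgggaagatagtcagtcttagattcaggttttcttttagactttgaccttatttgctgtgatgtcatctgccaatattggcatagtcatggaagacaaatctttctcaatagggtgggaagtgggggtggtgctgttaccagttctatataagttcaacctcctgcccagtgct

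GTTAAT, searched on both strands, began 32 bases before the start in the Alb window and 105 bases before it in the Afp window, and was in none of the windows of Hpx, Ahsg, Ambp and Rbp4, the other members with an entry. It occurred in 6.44% of 32817 RefSeq promoter windows of the same length. The RefSeq starts of Alb (90460870) and Afp (90490714) lay upstream of the gene starts given above. Counted from those gene starts, every distance in the Alb and Afp windows would be longer. The letters of the cAMP response element, TGACGTCA, were in no member's window and in 1.55% of all windows, and its shorter core TGACG was in 1 window of Rbp4 and in 17.7% of all windows. The CCAAT box (CCAAT) began 56 and 15 bases before the Alb start, on the gene strand and on the opposite strand, and 98 bases before the Afp start, where it lay next to the GTTAAT match without overlapping it. A pair of CCAAT matches on opposite strands lay side by side in the Hpx window, 104 and 99 bases before the start. CCAAT was found in 33.8% of all windows, and no match is evidence of a bound site.

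Library depth (M, 1000000 reads assigned to genes) was 7.66 to 23.1 M in control livers, 13.5 to 45.6 M in fusion livers, 2.96 to 33.9 M in vehicle tumours and 24.9 to 43.1 M in palbociclib tumours. Prkaca and Dnajb1, whose sequences the fusion shares, checked the labels: Prkaca was 36.3 to 50.5 CPM (reads of the gene per 1000000 reads) in control and 52.0 to 114 CPM in fusion livers, with no overlap (log2 fold change 0.78 ± 0.22 SE, edgeR adjusted p = 0.0379). Dnajb1 was 41.7 to 52.9 and 51.7 to 74.3 CPM, which overlapped (log2 fold change 0.42 ± 0.13 SE, edgeR adjusted p = 0.0493). The embryo libraries divided by the share of reads on ribosomal protein genes, a division found in the data and named as a batch by no label: it was 9.44 to 9.85% in control libraries 1 and 2 and fusion libraries 8 and 9, and 6.02 to 7.66% in the other 5 libraries. Sex, read from Xist, was female in control libraries 1 and 2 and fusion libraries 6 to 8, and male in the rest. Among the libraries of lower ribosomal share all controls were thus male and all fusion livers female. Differences between genotypes within that share cannot be told apart from differences between sexes. Vehicle tumour 1 stood apart with 46.6% mitochondrial reads against 1.24 to 6.47% in the other 9 tumours, and vehicle tumour 5 had the lowest depth, so that results resting on them are given without them as well. Summed levels of 11 hepatocyte markers that are not members were 37337 to 43933 CPM in control and 22019.8 to 32391 CPM in fusion livers, and of 12 such markers 15539.5 to 56639.8 CPM in vehicle and 37345 to 56722 CPM in palbociclib tumours, where all 12 were detected.

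In control livers the 10 genes took 13.7 to 19.8% of all reads assigned to genes, and in fusion livers 16.6 to 22.5%. Per kilobase of transcript, Alb and Afp were the most abundant members: Alb stood at 19323 to 34592 CPM per kilobase and Afp at 19001 to 24358 CPM per kilobase in the controls, ranges that overlapped, and both were among the 3 highest of all genes in each control library. Next on this scale were Trf, at 13646 to 15896, and Ahsg, at 9005 to 17491, which overlapped each other, while every Trf value lay under every Afp value. Ttr followed at 3062 to 4719 CPM per kilobase, without overlap with its neighbours on either side. Rbp4 (1301 to 2431), Hp (1376 to 2104) and Ambp (1689 to 2029.5) overlapped one another below it. Hpx, at 409 to 596 CPM per kilobase, and Orm1, at 1.46 to 3.28, closed the order, each apart from the gene above it. Orm1 was at the edge of detection in the late fetal liver, with 12 to 58 counts per embryo library.

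In fusion livers Afp and Hpx rose and Hp fell, while Alb did not pass the test in either direction. These were the 3 of 10 members past an edgeR adjusted p of 0.05, against 12.8% of all 13316 genes tested, with 5.99% higher and 6.81% lower. Control and fusion values did not overlap for 5 of the 10, of which Afp and Hpx were higher and Hp, Ttr and Trf lower, against 16.5% of all genes tested (8.37% higher and 8.15% lower). At an unadjusted p under 0.05 there were 7 of the 10, against 29.3% of all genes. The median log2 difference was -0.32 over the members and -0.01 over all genes tested. Since livers hold several cell types, fewer cells of a type and less RNA per cell cannot be told apart.

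**Figure D1:**
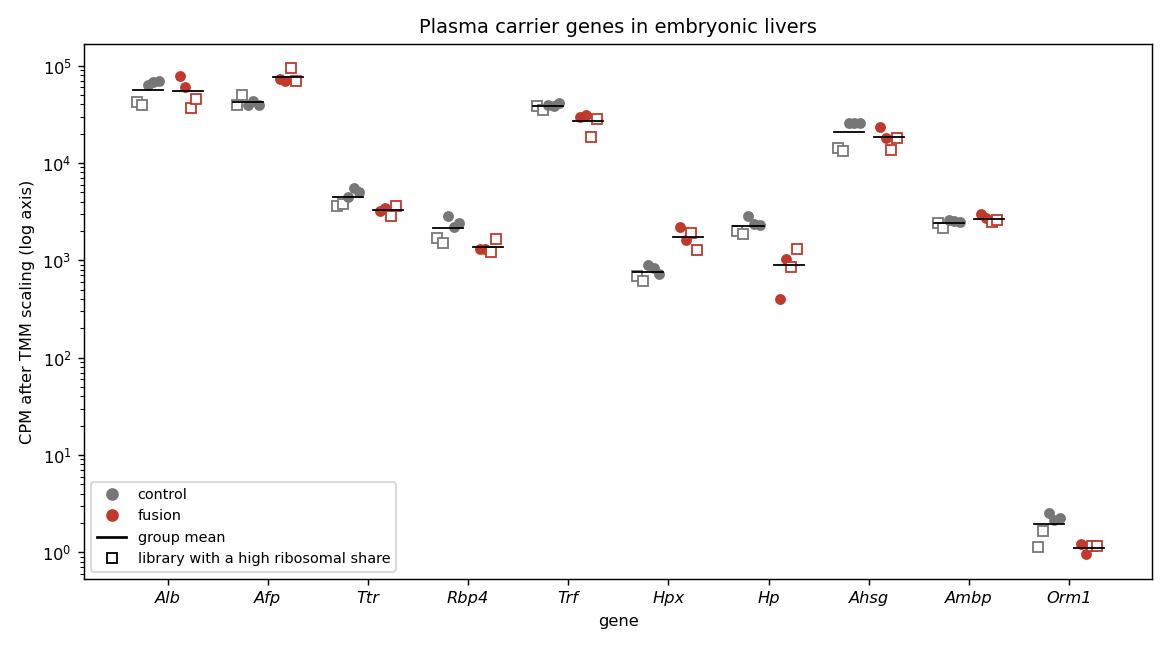
Level of each gene in each embryonic liver library, in CPM after TMM scaling on a log axis, for 5 control (grey) and 4 fusion (red) livers; lines are group means and open squares are the 4 libraries with a high ribosomal protein share. Afp and Hpx of every fusion liver lie above every control, Hp of every fusion liver lies below every control, and Alb falls into a high and a low set within both groups.

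Afp was 39199.7, 50250.4, 39454, 43202 and 39398 CPM in control libraries 1 to 5 and 72225, 70258, 93959.6 and 69947 CPM in fusion libraries 6 to 9. Every fusion liver thus stood above the highest control, and fusion library 8 stood above the other 3. The means were 42301 ± 4747 (SD, n = 5) and 76597 ± 11619 CPM (SD, n = 4), a 1.81-fold rise (log2 0.86 ± 0.20 SE, edgeR adjusted p = 0.0178). The rise had the same size in the libraries of high ribosomal share (log2 0.88 ± 0.22 SE) and of low ribosomal share (0.81 ± 0.17). The edgeR adjusted p was 0.000787 with this share as a covariate and 0.0409 with sex as a covariate. With a replicate left out the edgeR adjusted p was 0.0208 to 0.0497, the highest without fusion library 8.

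Alb was 42166, 39302, 62795, 67264 and 70360.4 CPM in the controls and 78939, 60218, 36524 and 45408 CPM in the fusion livers. Its values divided by ribosomal share within both genotypes: the 4 libraries of high share, from both groups, held 36524 to 45408 CPM, and the 5 of low share held 60218 to 78939 CPM. The erythroid markers moved with this division in the other direction and touched at 1 end, at 4298 to 5253 CPM summed over 9 genes in the libraries of high share and 3204 to 4302 CPM in those of low share. Endothelial markers (178 to 207 CPM where the share was high and 211 to 254 CPM where it was low) and fibroblast or stellate markers (197 to 248 and 264 to 422 CPM) divided in the direction of Alb without overlap. Hepatocyte markers overlapped between the shares, at 22020 to 39863 CPM where it was high and 23757 to 43933 CPM where it was low. The myeloid, macrophage, biliary, skin, muscle and fat markers overlapped as well. The part of these cells in the Alb values was not tested. The group means were 56378 ± 14567 (SD, n = 5) and 55272 ± 18560 CPM (SD, n = 4), with a log2 difference of -0.03, a 95% interval of -0.59 to 0.53 and an edgeR adjusted p of 0.962. With the ribosomal share as a covariate the log2 difference was 0.04 ± 0.14 (SE), against an SE of 0.29 without it.

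The Afp to Alb ratio, counted within each library, was 0.930, 1.28, 0.628, 0.642 and 0.560 in control libraries 1 to 5 and 0.915, 1.17, 2.57 and 1.54 in fusion libraries 6 to 9. Afp reads outnumbered Alb reads in 3 of 4 fusion livers and in 1 of 5 controls, and the groups overlapped. The mean log2 ratio was higher by 0.90 in the fusion livers, or 1.87-fold, which did not pass the two-sided exact permutation test (p = 0.0635, adjusted over 2 ratio tests 0.127, smallest possible 0.00794). Within the libraries of high share the fusion values (1.54 and 2.57) lay above the controls (0.930 and 1.28), and within those of low share the fusion values (0.915 and 1.17) lay above the controls (0.560 to 0.642). These differences were 0.87 and 0.76 on the log2 scale, each with the smallest exact permutation p that its design allows (0.333 and 0.1). Where the share was low, the groups also differed in sex. With libraries exchanged only within each share, an alternative chosen after seeing the data, the difference was 0.82 and the exact permutation p 0.0167, the smallest that 60 arrangements can give.

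**Figure D2:**
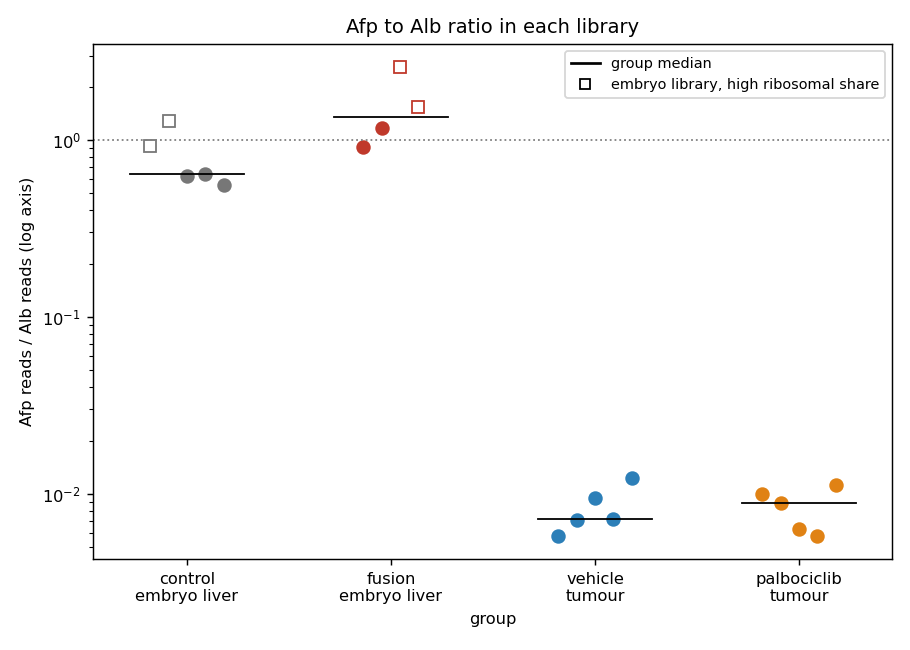
Afp reads divided by Alb reads in each of 19 libraries on a log axis, in 4 groups; lines are group medians, open squares are embryo libraries with a high ribosomal protein share, and the dotted line marks equal reads. Embryo livers lie between 0.560 and 2.57 and tumours between 0.00578 and 0.0123, and within either ribosomal share the fusion livers lie above the controls.

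Among the iron and heme carriers, Hpx and Hp moved in opposite directions. Hpx was 686, 613, 894, 830.5 and 727 CPM in the controls and 2173, 1632, 1898 and 1275 CPM in the fusion livers, all of which exceeded the highest control. Its rise was 2.33-fold (log2 1.22 ± 0.18 SE, edgeR adjusted p = 0.00216), and was 1.30 and 1.22 on the log2 scale within the libraries of high and low ribosomal share. Hp was 1989, 1850.5, 2830.4, 2360.0 and 2284 CPM in the controls and 399.9, 1037, 847 and 1308 CPM in the fusion livers, where fusion library 6 was the lowest and none reached the controls. Hp was 2.52-fold lower (log2 -1.33 ± 0.29 SE, edgeR adjusted p = 0.0140).

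The ratio of Hpx to Hp per kilobase, formed after both changes were known, was 0.283 to 0.316 in the 5 controls and 0.875 to 4.88 in the 4 fusion livers. Since each gene already separated the groups, in opposite directions, the separation of their ratio adds no evidence. The controls thus held about the same ratio, and the fusion livers varied among themselves, with fusion library 6 the highest and fusion library 9 the lowest. For Hp the difference was -0.82 ± 0.20 (SE) in the libraries of high share and -1.80 ± 0.34 in those of low share. Genotype and sex coincided in the low share. With sex as a covariate over all embryo libraries the Hp difference was -1.18 ± 0.27 (SE, edgeR adjusted p = 0.0239). The change in this difference with ribosomal share was -0.96 on the log2 scale and did not pass the test of the interaction (edgeR adjusted p = 0.296).

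Trf, the iron carrier, was 38899.8, 35085, 39395, 38508 and 40869 CPM in the controls and 29581, 31285, 18481 and 28307 CPM in the fusion livers. All 4 fusion values lay under the lowest control, and the controls varied little. The log2 difference was -0.52 ± 0.21 (SE) and did not pass the threshold (edgeR adjusted p = 0.119). It passed with the ribosomal share as a covariate (edgeR adjusted p = 0.0184) and under DESeq2 (adjusted p = 0.0111). With sex as a covariate it did not pass (edgeR adjusted p = 0.185). Neither the high nor the low share passed alone (edgeR adjusted p = 0.0609 and 0.132). No fit with a replicate left out passed (edgeR adjusted p of 0.146 to 0.249). Tfrc, the transferrin receptor, named after its value was known, was 924 ± 421 (SD, n = 5) and 858 ± 204 CPM (SD, n = 4), with an edgeR adjusted p of 0.851.

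The retinol and thyroxine carriers were lower in the fusion livers on average, without passing the threshold. Ttr was 3631, 3799, 4427, 5597 and 5008 CPM in the controls and 3207, 3433, 2865 and 3630.1 CPM in the fusion livers, so that the highest fusion value lay just under the lowest control (log2 -0.45 ± 0.18 SE, edgeR adjusted p = 0.115). Rbp4 was 1703, 1510.3, 2823, 2214 and 2427 CPM in the controls and 1303, 1294, 1226 and 1638 CPM in the fusion livers, where fusion library 9 overlapped the controls (log2 -0.65 ± 0.20 SE, edgeR adjusted p = 0.0580). The partners kept a similar proportion, with a Ttr to Rbp4 ratio per kilobase of 1.54 to 2.47 in control and 2.17 to 2.60 in fusion livers. Both differences were larger where the ribosomal share was low (-0.59 and -0.94) than where it was high (-0.18 and -0.16), and the interaction did not pass the test for either gene (edgeR adjusted p = 0.414 and 0.154). In the libraries of low share all controls were male and all fusion livers female, and an effect of sex cannot be told apart from one of genotype there.

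Ahsg and Ambp did not pass the test. Ahsg was 14194, 13364, 25689, 25773 and 25957 CPM in the controls and 23353, 18215, 13543 and 18219 CPM in the fusion livers. Like Alb it divided the controls by ribosomal share, with control libraries 1 and 2 beside the lowest fusion library and controls 3 to 5 close together above every fusion library. The log2 difference of Ahsg was -0.20 with a 95% interval of -0.73 to 0.33 (edgeR adjusted p = 0.673), and it was 0.22 ± 0.19 (SE) within the libraries of high share and -0.31 ± 0.18 within those of low share. Ambp was the steadiest member, at 2435 ± 173 (SD, n = 5) and 2688 ± 235 CPM (SD, n = 4) over a range of 2142 to 3007 CPM (log2 0.14, 95% interval -0.13 to 0.42, edgeR adjusted p = 0.538). Orm1, whose near-identical copies Orm2 and Orm3 could share its reads, was 1.94 ± 0.549 CPM (SD, n = 5) in the controls and 1.12 ± 0.115 CPM (SD, n = 4) in the fusion livers, and control library 1 overlapped them (log2 -0.81 ± 0.26 SE, edgeR adjusted p = 0.0621).

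**Figure D3:**
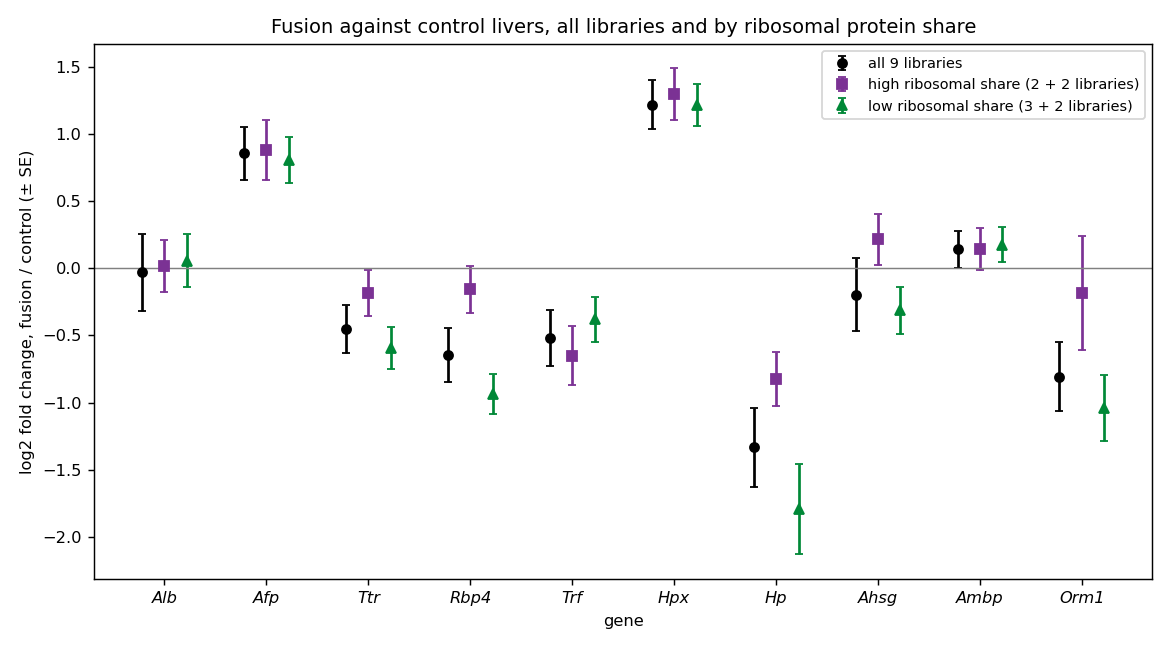
Log2 fold change of fusion against control livers ± SE for each gene, from all 9 libraries (black circles), from the 4 libraries of high ribosomal share (purple squares) and from the 5 of low share (green triangles). Afp and Hpx lie above 0 by about the same amount in all 3 fits and Hp lies below 0 in all 3, while Ahsg changes sign between the fits.

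With the ribosomal share as a covariate, 7 of the 10 members passed an edgeR adjusted p of 0.05 (Afp and Hpx higher, and Hp, Trf, Ttr, Rbp4 and Orm1 lower), against 32.6% of all genes. DESeq2 called 7 as well, against 18.4% of all genes. Within the libraries of low share, where sex and genotype coincided, 6 passed, against 21.8%. Within those of high share 3 passed, against 20% of genes. With sex as a covariate 3 passed, against 9.64%. Afp, Hpx and Hp passed in all of these fits.

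The make-up of the carrier transcripts shifted with these changes. Of the summed CPM per kilobase of the 10 genes, Afp was 19.6 to 32.8% in control livers and 32.1 to 52.3% in fusion livers, which overlapped in 1 library of each group. Trf was 15.4 to 20.8% in control and 8.25 to 12.7% in fusion livers, without overlap, and Hp 1.74 to 2.25% and 0.273 to 1.11%, also without overlap. Alb made up 26.0 to 35.5% and 20.6 to 35.6%. These are shares of a whole, so that a rise of Afp lowers the share of the others.

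**Figure D4:**
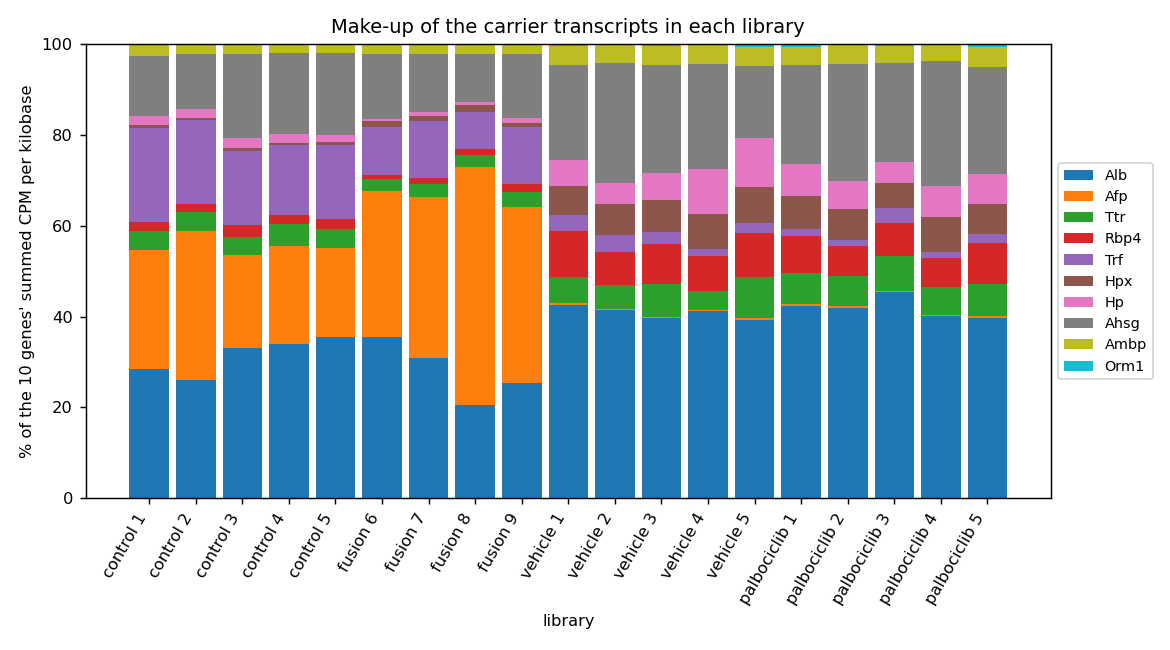
Share of each gene in the summed CPM per kilobase of the 10 genes, for 9 embryonic liver and 10 tumour libraries, as stacked bars that add up to 100%. Afp (orange) takes 19.6 to 52.3% of the embryo bars and 0.229 to 0.476% of the tumour bars, where Alb (blue) and Ahsg (grey) hold the widest bands.

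Other secreted plasma proteins of the liver were read beside the carriers from a list of 26, of which 23 were tested in the embryos. None rose and 8 fell, where 5.99% of all genes tested rose and 6.81% fell, with a median log2 difference of -0.40 against -0.01 over all genes tested. The smallest adjusted p-values belonged to Hrg, the histidine-rich glycoprotein, which fell from 192 ± 51.7 to 41.8 ± 23.4 CPM (log2 -2.20 ± 0.33 SE, edgeR adjusted p = 0.00211), and to Cp, the copper-carrying ferroxidase ceruloplasmin, which fell from 246 ± 64.5 to 39.5 ± 27.6 CPM (log2 -2.64 ± 0.40 SE, edgeR adjusted p = 0.00216). Next was Gc, the vitamin D carrier, at 1738 ± 324 and 742 ± 151 CPM (log2 -1.23 ± 0.20 SE, edgeR adjusted p = 0.00281, SD with n = 5 and 4 in each of these genes). Gc belongs to the albumin family with Alb, Afp and Afm, so that its known members went different ways: Afp rose, Gc fell, Alb did not pass the test, and Afm, named for this family after its value was known, was 118 ± 17.8 and 83.9 ± 14.2 CPM (edgeR adjusted p = 0.0540). The other 5 that fell were Itih4, Fetub, A2m, Azgp1 and Itih1. Among the 5 genes with a positive log2 difference, the smallest p was that of Serpina6, at 36.1 ± 18.9 and 72.1 ± 27.6 CPM. It did not pass the threshold (log2 1.00 ± 0.35 SE, edgeR adjusted p = 0.083).

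Of 17 acute phase genes listed, 15 were tested, 1 rose and 4 fell (5.99% and 6.81% of all genes), with a median log2 difference of -0.34. Crp, the C-reactive protein, was 356 ± 78.1 CPM (SD, n = 5) in the controls and fell to 149 ± 42.0 CPM (SD, n = 4), edgeR adjusted p = 0.00407. Saa4, a serum amyloid A, fell by 1.16 on the log2 scale (edgeR adjusted p = 0.00547) and Apcs, the serum amyloid P component, by 1.26 (edgeR adjusted p = 0.0108). Fgl1 was the fourth, and Lifr, the receptor of leukaemia inhibitory factor, rose (log2 1.00 ± 0.21 SE, edgeR adjusted p = 0.0109). Hp, itself an acute phase gene, was thus lower beside 4 genes of this list, and Hpx was higher. Lbp, Socs3, Lcn2 and Saa3, named after their values were known, did not pass (edgeR adjusted p = 0.906, 0.704, 0.0699 and 0.0945). A change of the acute phase response as a whole was not tested.

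Receptors and handlers of the carried ligands had 17 tested genes, with a median of -0.11, of which 1 fell, a share near the 6.81% of all genes: Asgr2, a subunit of the asialoglycoprotein receptor (log2 -0.50 ± 0.14 SE, edgeR adjusted p = 0.0376). Of the 7 with a positive log2 difference, Fth1 had the smallest p and did not pass (log2 0.45 ± 0.20 SE, edgeR adjusted p = 0.153). Among 15 tested regulators of the Alb and Afp genes the median was -0.06 and 2 fell, beside 6.81% of all genes. Foxa2, a pioneer factor of liver genes, was 35.1 ± 5.68 CPM (SD, n = 5) and fell to 20.2 ± 5.81 CPM (SD, n = 4), edgeR adjusted p = 0.0189, and Cebpa fell from 200.4 ± 35.2 to 128 ± 24.2 CPM with an edgeR adjusted p of 0.0303. Cebpb had the smallest p of the 6 with a positive log2 difference and did not pass (0.56 ± 0.26 SE, edgeR adjusted p = 0.18). The postnatal repressors of Afp, named here after their values were known, were low: Zhx2 was 4.60 ± 0.998 and 4.36 ± 0.548 CPM (edgeR adjusted p = 0.872), and Zbtb20 was 0.279 to 0.493 CPM in control and 0.536 to 1.19 CPM in fusion livers, under the filter of the test.

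The hepatocyte markers beside these changes did not move as one. Among the 11 that are not members, Cps1 rose and Apoa1 fell, both named after their values were known (log2 0.85 and -0.89, edgeR adjusted p = 0.0115 and 0.0382), and Apoa1 held 18750.2 to 26911 CPM in the controls and 8077 to 18664 CPM in the fusion livers, the largest part of the difference of their sum. Their part in the changes of the carriers was not tested. Biliary markers were lower in the fusion livers, with 3 of 5 past the threshold and summed levels of 49.9 to 73.8 CPM in control and 11.4 to 41.4 CPM in fusion livers. Of the fibroblast or stellate markers 2 of 6 fell. Of all genes tested 6.81% were lower past the threshold. Erythroid, myeloid, macrophage, endothelial, skin, muscle and fat lists had 0 genes past the threshold.

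Genes with patterns most like Alb and Afp were found by the root-mean-square difference of centred log2 levels over the 9 embryo libraries, among 8292 genes whose mean was 10 CPM or more. Steap3, a reductase of iron, was the most like Alb, with a difference of 0.060 against a median of 0.47 over all genes, followed by Copg1 (0.082) and Hfe (0.085). Arl3 was the most like Afp, with 0.081 against a median of 0.50, followed by Cox11 (0.095) and Mrps6 (0.10). These genes were measured in the same 9 libraries, which divide by ribosomal share, and no test was made of these distances.

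In the tumours the family had another make-up, with Alb high and Afp low. The tables of the embryos and tumours were normalized separately and come from different RNA selections and tissues, so that levels set side by side across them are descriptions without a test. The 10 genes took 3.19 to 8.46% of the reads in vehicle and 6.40 to 9.18% in palbociclib tumours. Afp was 94.6 to 438 CPM in the 10 tumours, and the lowest embryo value was 89.4 times the highest of these. Alb was 16348 to 46773 CPM, a range that overlapped that of the embryos.

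The Afp to Alb ratio within each tumour was 0.00578, 0.00714, 0.00948, 0.00719 and 0.0123 in vehicle tumours 1 to 5 and 0.0100, 0.00892, 0.00629, 0.00581 and 0.0113 in palbociclib tumours 1 to 5. The groups covered the same range, with 81.4 to 173 Alb reads for each Afp read. The mean log2 ratio differed by 0.02 (two-sided exact permutation p = 0.929). The lowest ratio of the embryo livers was 45.6 times the highest of the tumours, a comparison that rests on no scaling between tables.

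On the scale of CPM per kilobase Alb was 8038 to 22996 in the tumours and Ahsg 3933 to 15255, and they were the highest members in every tumour. Afp, at 45.8 to 213, and Orm1, at 48.0 to 293, were the lowest, and Afp ranked between 368 and 844 among all genes. Orm1 was 37.2 to 227 CPM, and its lowest tumour value was 14.7 times its highest embryo value. Trf was 1483 to 4687 CPM in the tumours, and its lowest embryo value was 3.94 times the highest of these. The Ttr to Rbp4 ratio per kilobase was 0.550 to 1.03 in the tumours, under every embryo value. The Hpx to Hp ratio per kilobase was 0.721 to 1.48 in the tumours, above every control liver and overlapping the fusion livers (0.875 to 4.88).

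**Figure D5:**
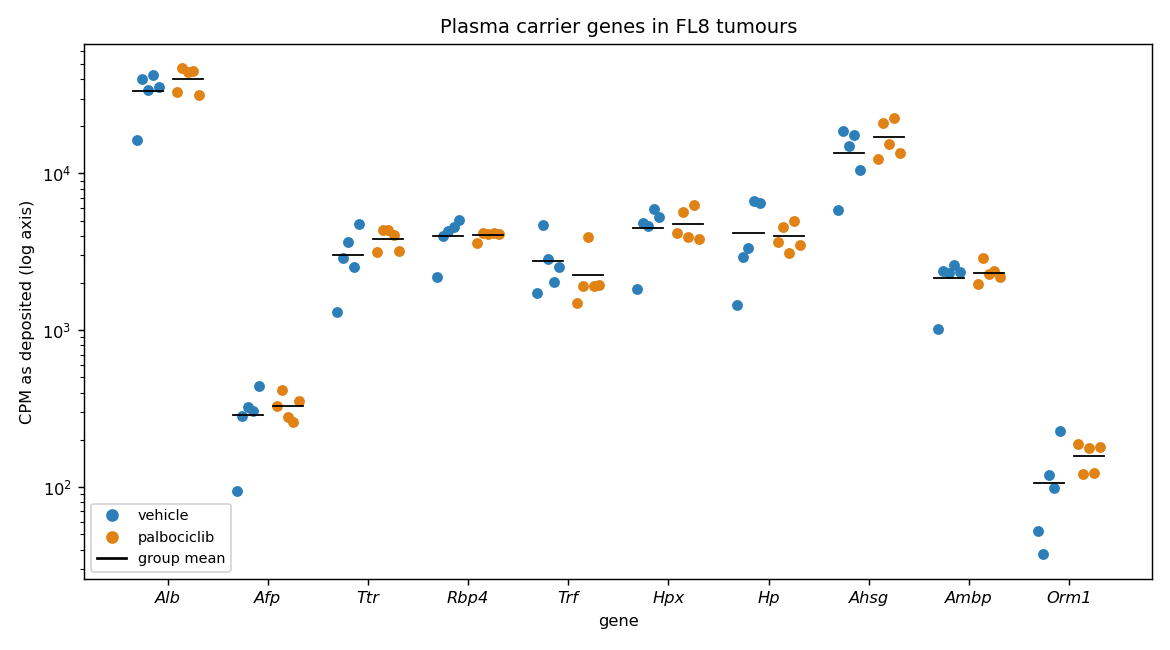
Level of each gene in each FL8 tumour, in deposited CPM on a log axis, for 5 vehicle (blue) and 5 palbociclib (orange) tumours; lines are group means. The groups overlap for all 10 genes, and 1 vehicle tumour, number 1, is the lowest point for 8 of them.

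After palbociclib no member passed the test, and no member separated the groups. The counts were 0 of 10 members and 0% of 12829 genes tested past a limma adjusted p of 0.05, with 586 genes (4.57%) at an unadjusted p under 0.05, 0 genes called by edgeR on the reads recovered from CPM and 8 called by DESeq2, none of them a member. The groups were apart for 0 of 10 members, against 0.935% of all genes tested (0.834% higher and 0.101% lower). By the sign of the limma log2 difference 9 of 10 members were higher after palbociclib, beside 68.8% of all genes, with a median log2 difference of 0.24 against 0.14 over all genes. By group mean CPM Hp was lower as well as Trf. The direction rested on vehicle tumour 1: without it 4 of 10 had a higher log2 value (Alb, Ttr, Ahsg and Orm1), without vehicle tumours 1 and 5 there were 4 (Alb, Afp, Ttr and Orm1), and with TMM factors 7 were higher. TMM scaling moved the median of all genes from 0.14 to 0.01.

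Alb was 16348, 39981, 34189, 42451 and 35687 CPM in vehicle tumours and 33002, 46773, 44208, 44921 and 31401 CPM in palbociclib tumours. Vehicle tumour 1 lay below the rest, and the other 9 interleaved. The means were 33731 ± 10263 and 40061 ± 7258 CPM (SD, n = 5 each), with a limma log2 difference on the log2(CPM + 1) scale of 0.30, a 95% interval of -0.74 to 1.35 and an adjusted p of 0.961. Without vehicle tumour 1 that difference was 0.06 ± 0.35 (SE).

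Afp was 94.6, 286, 324, 305 and 438 CPM in vehicle tumours and 330.4, 417, 278, 261 and 353 CPM in palbociclib tumours. The highest and the lowest value both belonged to vehicle tumours. The limma log2 difference was 0.32 with a 95% interval of -0.35 to 0.98 (adjusted p = 0.953), and -0.05 without vehicle tumour 1.

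Orm1 was the only member with an unadjusted limma p under 0.05. It was 52.1, 37.2, 119, 98.2 and 227 CPM in vehicle tumours and 189, 122, 177, 123 and 181 CPM in palbociclib tumours, where the 5 values were closer together. Vehicle tumour 5 was the highest of all. The log2 difference was 0.82 ± 0.38 (SE), with a limma p of 0.0464 and an adjusted p of 0.953. With a tumour left out it ranged from 0.51 (without vehicle tumour 2, limma adjusted p = 0.745) to 1.16 (without vehicle tumour 5, limma adjusted p = 0.451), and without vehicle tumours 1 and 5 it was 1.02 (limma adjusted p = 0.422). On the recovered reads it was 0.42 in edgeR (adjusted p = 0.946) and 0.40 in DESeq2.

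The scavengers overlapped between treatments. Hp was 1442, 2939, 3328, 6682 and 6521 CPM there and 3678, 4555, 3108, 4999 and 3476 CPM after palbociclib (limma log2 difference 0.11 ± 0.42 SE, adjusted p = 0.980). Hpx was 4486 ± 1559 and 4774 ± 1148 CPM (SD, n = 5 each, limma adjusted p = 0.970). Trf, the only member with a negative limma log2 difference, was 1718, 4687, 2854, 2026 and 2524 CPM in vehicle and 1483, 1914, 3932, 1921 and 1935 CPM in palbociclib tumours, where palbociclib tumour 3 stood alone above the other 4 (limma log2 difference -0.30 ± 0.36 SE, adjusted p = 0.957). That difference was -0.53 without palbociclib tumour 3 and -0.087 without vehicle tumour 2, the highest of its group.

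The remaining members overlapped widely between treatments. Ttr was 3026 ± 1281 CPM in vehicle and 3819 ± 589.5 CPM in palbociclib tumours, and Rbp4 was 4007 ± 1082 and 4032 ± 238 CPM (SD, n = 5 each). Ahsg was 13489 ± 5286 and 16983 ± 4528 CPM, and Ambp 2144 ± 636 and 2334 ± 342 CPM (SD, n = 5 each). Limma adjusted p-values of these 4 genes lay between 0.953 and 0.987. With the 17 mitochondrial genes left out of the totals, vehicle tumour 1 was still the lowest for 6 of the 10 members, among them Alb at 30613 CPM against 33076 to 48846 CPM in the other 9.

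None of the 5 lists read beside the carriers had a gene past the limma threshold in the tumours. Their median log2 differences were 0.35 for other plasma proteins, 0.03 for receptors and handlers, 0.07 for regulators, 0.41 for acute phase genes and 0.58 for fetal liver genes, against 0.14 over all genes. The smallest p-values were those of the fatty acid desaturase gene Scd2 (log2 difference 1.29 ± 0.48 SE, limma adjusted p = 0.953) and Il1r1, the interleukin-1 receptor (0.99 ± 0.37 SE, limma adjusted p = 0.953). The Afp repressors Zhx2 and Zbtb20 were 17.3 ± 7.37 and 43.6 ± 15.1 CPM in vehicle tumours (SD, n = 5). Both lay above their embryo ranges in all 10 tumours, a comparison across tables scaled separately. Their part in the Afp levels was not tested.

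Kng1, the kininogen gene, had the pattern most like Alb over the 10 tumours, with a root-mean-square difference of 0.071 in centred log2 level against a median of 0.44 over 8412 genes. Serpinf1 (0.11) and Azgp1 (0.12), both genes of secreted proteins, followed. Gstm6 (0.15), Asgr1 (0.16) and Afm (0.17) were the most like Afp, against a median of 0.54. Vehicle tumour 1 was the lowest library for Alb, for Afp and for all 6 of these genes.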

How the data were processed

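The authors deposited, for 9 livers, a table of raw counts by gene symbol, aligned with STAR 2.5.1b to mm10, per the submitters' processing notes. Its second block of 9 columns, scaled fragments, was not used. The tumour files held CPM (counts scaled to 1000000 per library) for 10 tumours, as the authors deposited them and per the file headers, made with cutadapt 2.10, HISAT2, featureCounts and R 4.1.2 on mm10, per the submitters' processing notes, which also name DESeq2. Strand setting and treatment of shared reads are not given in the sources used here. All tumour values (100%) came out as whole reads, within a tolerance of 0.001 read.

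Embryo counts were tested with edgeR 4.0.16 (quasi-likelihood, TMM factors, filterByExpr) under R 4.3.3, and tumours, since their unit was CPM, with limma 3.58.1 (trend) on log2(CPM + 1), a scale that understates changes of low genes, over genes whose mean reached 1 CPM. P-values were adjusted by Benjamini-Hochberg over all genes tested, with a threshold of 0.05. The 95% intervals were taken from the SE by a normal approximation, which makes them narrower than intervals from the distributions of the tests. Embryo levels are CPM after TMM scaling and tumour levels deposited CPM. Log2 ratios of Afp to Alb were tested by exact permutation, two-sided, over all arrangements of the libraries, in Python 3.11.15. Lengths and positions came from GENCODE M21, which held 13103 of 13549 embryo symbols and 17469 of 17606 tumour identifiers, and promoters from RefSeq, which had an entry for 6 of the 10 members.

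The members and lists were chosen with earlier results of these data known. All members were named, with the 3 genes most like Alb and Afp. From each list came the 3 genes of smallest adjusted p past the threshold per direction. Where none passed in the embryos, the 1 of smallest p in that direction was named. In the tumours no listed gene passed, and only Scd2 and Il1r1 were named by their p. Marker lists were hepatocyte, erythroid, myeloid, macrophage, endothelium, fibroblast, biliary, skin, muscle and fat, and the result of 1 marker gene is not reported here. A count of 3 was the floor of detection, 0.0658 to 1.01 CPM, and covers counting error only. Libraries of a group all differed by more than counting noise (lowest chi-square per degree of freedom 13.0). On simulated 4-fold changes edgeR recovered 199 of 199 changed genes among 13308 and limma 150 of 155 among 12806. Of the 212 and 157 genes called, 13 and 7 were false. Within each simulation all genes had the same dispersion, with no division by ribosomal share or sex and no outlying library. Recovery of changes smaller than 4-fold, such as those of the members, was not measured. Alternatives were other scalings, filters and pseudocounts, DESeq2 1.42.0, covariates, a replicate block and each replicate left out.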

Additional observations from a re-analysis of the deposited data

Results flagged for a closer look

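Of 44 groups of member values screened, 4 held a library far from the rest of its group, where chance gives about 2.2, that is 1 in 20. Afp in fusion library 8 was 93959.6 CPM against 69947 to 72225 CPM in the other fusion livers. Trf in palbociclib tumour 3 was 3932 CPM against 1483 to 1935 CPM in the other 4. Ambp in vehicle tumour 1, the library with 46.6% mitochondrial reads, was 1025 CPM against 2326 to 2624 CPM. Rbp4 in palbociclib tumour 1 was 3610.4 CPM against 4088 to 4169 CPM.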

How the results depend on the processing

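Afp, Hpx and Hp kept their direction and stayed past the threshold in all 18 embryo alternatives run. The number of changed embryo genes was 4345 with the ribosomal share as a covariate, 2589 and 2950 within the libraries of high and low share, and 969 to 1581 with a replicate left out (969 without control 3, 1107 without fusion 7 and 987 without fusion 8), against 1704. Changed members numbered 7 under DESeq2, 7 with the covariate and 6 within the low share, and 3 to 4 with a replicate left out. The ratio of the embryos, 0.90, was 0.82 with exchange within shares and 0.62 to 1.12 with a replicate left out. Alb turned sign at 0.036 (ribosomal share as a covariate), 0.13 (sex as a covariate), 0.019 and 0.059 (high and low share) and ranged from -0.24 to 0.13 with a replicate left out (0.026, 0.042 and 0.076 without controls 3, 4 and 5, 0.13 and 0.057 without fusion 8 and 9). Ahsg turned at 0.080 (sex) and 0.22 (high share). In the tumours DESeq2 on the reads called 8 genes, against 0. Without vehicle tumours 1 and 5, chosen after seeing the data, Hpx was -0.12, Hp -0.046, Ahsg -0.038, Ambp -0.078 and Rbp4 -0.082. Hp was -0.037 with TMM and -0.036 without mitochondrial genes, -0.15 under edgeR and -0.17 under DESeq2, and Rbp4 -0.088, -0.086, -0.10 and -0.11 in the same order. With a replicate left out, Afp ranged from -0.045 to 0.51, Hpx from -0.13 to 0.29, Hp from -0.22 to 0.33, Ambp from -0.064 to 0.27, Rbp4 from -0.14 to 0.16 and the ratio from -0.10 to 0.17. The lowest value of each of these 5 members was the one without vehicle tumour 1. The cause of these turns was not tested. Same-numbered tumours correlated at -0.32 to 0.00, so that the numbers were not taken as pairs, and with the replicate block 0 genes passed, with 460 against 586 at an unadjusted p under 0.05, and the log2 ratio differed by 0.02. Orm1, with 12 to 58 counts, is limited by depth in the embryos.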

Other observations

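Fetal liver genes that are silenced after birth did not share one direction in the embryos. Of 11 tested, 0 rose and 2 fell, where 5.99% of all genes rose and 6.81% fell, with a median log2 difference of 0.12 against -0.01 over all genes. Dlk1 was 563 ± 71.2 CPM (SD, n = 5) in the controls and fell to 350.0 ± 40.4 CPM (SD, n = 4), edgeR adjusted p = 0.0115, and Gpc3, a glypican, fell from 292 ± 88.5 to 168 ± 29.8 CPM with an edgeR adjusted p of 0.0449. Afp thus rose beside a fall of both, while 8 of the 11 had a log2 difference above 0. The smallest p among those belonged to Igf2bp1, at 19.1 ± 4.67 CPM (SD, n = 5) and 28.5 ± 4.29 CPM (SD, n = 4). It did not pass the threshold (log2 0.58 ± 0.18 SE, edgeR adjusted p = 0.0535). H19 and Igf2, named after their values were known, were 6581 ± 1675 and 1497 ± 511 CPM in control livers (SD, n = 5). In fusion livers they were 8843 ± 4501 and 1995 ± 1085 CPM (SD, n = 4). Both were higher on average and did not pass the test (log2 0.43 and 0.41, edgeR adjusted p = 0.431 and 0.485).

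Among other genes of that list in the tumours, Igf2 was 2477 to 14837 CPM in vehicle and 11175 to 32789 CPM in palbociclib tumours, which overlapped (limma log2 difference 1.34 ± 0.55 SE, adjusted p = 0.953), and H19 was 883 to 2959 and 1908 to 3955 CPM. Dlk1 was under 1 CPM in all 10 tumours. H19 was lower in every tumour than in every embryo liver, where the lowest value was 4121 CPM, a comparison across tables scaled separately.

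Erythroid markers summed over 9 genes were 38.6 to 1732 CPM in vehicle and 37.5 to 112 CPM in palbociclib tumours, with Gata1 and Rhag under 1 CPM everywhere. Muscle markers were 5.53 to 32.1 and 1.40 to 20.4 CPM, skin markers 14.9 to 33.6 and 9.60 to 51.3 CPM, and fat markers 56.3 to 150.1 and 55.6 to 101 CPM. Macrophage markers were 4.06 to 247 and 11.2 to 28.1 CPM, endothelial markers 70.4 to 202 and 59.2 to 95.5 CPM, fibroblast markers 39.9 to 240.5 and 48.9 to 193 CPM, myeloid markers 42.6 to 224 and 26.4 to 91.4 CPM, and biliary markers 22.3 to 128 and 22.2 to 87.3 CPM. The highest macrophage, endothelial, fibroblast and biliary values were those of vehicle tumour 1. In the other vehicle tumours these lists held 4.06 to 18.05, 70.4 to 151, 39.9 to 121 and 22.3 to 35.5 CPM, in that order. The part of these cells in the carrier levels was not tested.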
